A study of Mus musculus with 57 samples.

Results

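The 8 genes described here are 4 crest regulators (Tfap2a, Tfap2b, Pax3, Sox10) and 4 mesenchymal genes (Prrx1, Pdgfra, Pdgfrb, Postn), taken by name from the count table's Ensembl IDs through GENCODE M21, and they are 8 of 55450 genes in all. Neural crest cells leave the border of the forming neural plate and become neurons, glia, pigment cells and much of the mesenchyme of the face, and mesenchyme also arises from mesoderm. The transcription factors Tfap2a and Tfap2b (AP-2 family), Pax3 and Sox10 act in the specification and maintenance of crest, whereas Prrx1 (a homeobox factor of limb and facial mesenchyme), Pdgfra and Pdgfrb (receptors for platelet-derived growth factors, PDGF) and Postn (periostin, a secreted matrix protein) mark mesenchymal progenitors. Pdgfra is also known as a surface marker of primitive endoderm.

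The data are bulk RNA-seq of mouse embryonic stem cells of the Sox1-EGFP/FoxA2mCherry line, whose EGFP and mCherry stand for Sox1 (neuroectoderm) and FoxA2 (endoderm) respectively. In the sorted arm, cells were taken at day 0 (D0) as Sox1-FoxA2- and after 2, 4 or 6 days (D2, D4, D6) of retinoic acid (1 uM) in N2B27 medium as Sox1-FoxA2-, Sox1+FoxA2-, Sox1-FoxA2+ and Sox1+FoxA2+ populations. Cells were seeded in serum medium with leukaemia inhibitory factor before the change to N2B27 with retinoic acid, and D0 cells had received no retinoic acid. In comparisons with D0 cells, time, medium and retinoic acid thus cannot be told apart. In the progeny arm, cells isolated at D2 by each gate other than the double-negative one were replated in retinoic acid medium on a serum base and taken at D4 or D6 (PD4, PD6). In any comparison of progeny with sorted cells, the basal medium, the replating and the lack of a gate at harvest cannot be told apart. All 19 conditions come from 1 engineered line grown from single sorted cells, the populations are what the reporter gates admit, and each condition has 3 replicate libraries (39 sorted, 18 progeny). Sorted libraries were made from equal numbers of cells taken at the gate, and progeny libraries from cells counted by hand at harvest, which were not gated a second time.

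The least deeply sequenced library held 10170632 counts and the most deeply sequenced 81845651 (median 36694379), and between 14458 and 27832 genes per library had at least 1 count. Levels below are normalized counts (counts divided by DESeq2 size factors), given in the order of replicates 1, 2 and 3, and means carry their SD with n = 3 unless another n is named. A count of up to 3 in a library is treated as the floor of detection, which covers counting error only because amplified reads are not independent molecules. Of the counts above 0 in the table, 80.6% were even, and if reads were counted in pairs, floors and counting intervals are too narrow. Genes that lie inside another gene had no counts in this table: all 439 protein-coding genes wholly inside a gene of the same strand, and all 822 inside one of the other strand, were at 0 in every library. Sox1 itself is one of them, with 0 counts in 57 libraries against 5489 for Sox1ot, the noncoding gene around it, so the EGFP gate could not be checked on its own transcript. Of the 8 genes, Tfap2a has 48.1% of its exon bases inside other genes, Prrx1 10.2% and Pdgfra 7.93%, and the other 5 have none, so levels per length use only exon bases outside other genes. In bulk libraries fewer cells of a type and less RNA per cell cannot be told apart.

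Foxa2, the gene behind the mCherry gate, separated Sox1-FoxA2+ from Sox1+FoxA2- libraries. It stood at 3241, 3057 and 1646 in D2 Sox1-FoxA2+ cells against 308, 324 and 0 in D2 Sox1+FoxA2- cells, and at 2848, 3300 and 3047 against 205, 205 and 264 in the corresponding PD6 progeny. The Sox1-FoxA2+ and Sox1+FoxA2- libraries did not overlap in Foxa2 on any day of either arm, and edgeR called the difference in D4 and D6 progeny and in no sorted pair. In D6 Sox1+FoxA2+ cells Foxa2 was at 0, 728 and 76.6 against 131, 124 and 20.3 in D6 Sox1+FoxA2- cells. By this transcript 2 of the 3 D6 Sox1+FoxA2+ libraries, replicates 1 and 3, thus did not stand above all 3 D6 Sox1+FoxA2- libraries, and the comparisons of D6 Sox1+FoxA2+ cells carry that limit. At D4, Sox1+FoxA2+ replicate 1 (214) lay below Sox1+FoxA2- replicate 3 (251), and both libraries enter the D4 average of sorted cells.

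All 8 genes passed the filter on low counts in every fit, but many libraries held none of their reads. Sox10 was at 0 in 22 of 57 libraries, Postn in 18, Tfap2a in 13, Tfap2b in 11, Pax3 in 9, Prrx1 in 7, and Pdgfra and Pdgfrb in 1 each. All 4 crest regulators were above the floor in 22 libraries and all 4 mesenchymal genes in 33. Among progeny these numbers were 11 of 18 for crest and 16 of 18 for mesenchymal genes, and among sorted libraries 11 of 39 and 17 of 39. In 2 sorted libraries, D2 Sox1-FoxA2+ replicate 3 and D2 Sox1+FoxA2+ replicate 2, no crest regulator was above the floor.

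Tfap2b (chromosome 1, 19208914 to 19238576, GRCm38) was highest in sorted cells positive for Sox1 alone. It reached 963, 2564 and 161 in D4 Sox1+FoxA2- cells and 659, 1035 and 762 in D6 Sox1+FoxA2- cells. D6 Sox1+FoxA2+ cells followed at 592, 965 and 123. These 3 conditions were the highest of the 19 by mean, at 1229 ± 1223, 819 ± 194 and 560 ± 422, and no neighbours in the whole order of 19 differed by more than the larger of their SDs. At D4 the Sox1-FoxA2+ libraries held 25.9, 0 and 17.5, below all 3 Sox1+FoxA2- libraries, and at D6 they held 14.3, 675 and 65.8, of which replicate 2 lay within the Sox1+FoxA2- range. Tfap2b was close to absent at D0, with 0, 5.27 and 0, and in D2 Sox1-FoxA2- cells, with 25.8, 0 and 0. In 18 progeny libraries it ran from 0 through a median of 19.2 to 217. At D6 Sox1+FoxA2- progeny held 0, 11.2 and 49.2, all below the 3 sorted libraries of that population and day. Sox1-FoxA2+ progeny held 24.1, 20.5 and 14.4 and Sox1+FoxA2+ progeny 178, 36.1 and 1.89, and both overlapped their sorted counterparts.

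Pax3 (chromosome 1, 78101267 to 78197134), a paired-box factor of the dorsal neural tube and crest, had the same 2 conditions at the top, with 1421, 1135 and 61.0 in D4 Sox1+FoxA2- cells and 692, 828 and 427 in D6 Sox1+FoxA2- cells. The Sox1-FoxA2+ libraries held 70.4, 2.25 and 52.4 at D4, where replicate 1 lay above the lowest Sox1+FoxA2- library, and 0, 0 and 904 at D6. Replicate 3 of D6 Sox1-FoxA2+ therefore stood above all Sox1+FoxA2- libraries of that day, and the same library was the only one of its group with Tfap2a reads (220, against 0 and 0). In the double-negative cells Pax3 held 0, 1.32 and 0 at D0, 59.8, 12.9 and 94.3 at D2, 154, 49.96 and 521 at D4, and 192, 109 and 400 at D6, with no overlap between D0 and D6. Among progeny it was highest in PD6 Sox1-FoxA2+ cells, at 581, 146 and 183, above the 3 PD6 Sox1+FoxA2- libraries (96.3, 16.2 and 73.8) and the 3 PD6 Sox1+FoxA2+ libraries (9.03, 70.3 and 26.4). All 18 neighbouring pairs in the order of Pax3 means differed by no more than the larger SD.

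Tfap2a (chromosome 13, 40715302 to 40738376), an AP-2 factor of early crest and surface ectoderm, ranged from 0 to 503 over the 57 libraries with a median of 50.8. Its highest mean was in D6 Sox1+FoxA2- cells, 353 ± 110 from 438, 391 and 229, followed by D4 Sox1+FoxA2- at 244 ± 226. D0 cells came next at 188 ± 186, since replicate 2 of D0 held 403. Tfap2a thus had reads in all 3 D0 libraries, in which Tfap2b and Pax3 were at or near 0. Its lowest mean was in PD4 Sox1-FoxA2+ cells, 14.8 ± 18.5, and all 18 neighbouring pairs in its order lay within the larger SD. Progeny ran from 0 to 115.

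Sox10 (chromosome 15, 79154908 to 79165240), a factor of migrating crest and its glia, was the sparsest of the 8. Its highest library, D6 Sox1+FoxA2+ replicate 1, held 919 while replicates 2 and 3 of that group held 0. D6 Sox1+FoxA2- cells showed the same pattern at 274, 0 and 0. In D4 Sox1+FoxA2- cells it was at 198, 0 and 193, and in D2 Sox1+FoxA2- cells at 67.8, 69.5 and 51.3. None of the 3 D2 Sox1-FoxA2+ libraries held a Sox10 read, so the groups did not overlap and Sox10 was at least 25.2-fold lower there against the floor of 3 counts per library. That difference was not called with edgeR (adjusted p = 0.91), and DESeq2 gave an adjusted p of 0.03. The adjusted p over the alternatives of this result otherwise stayed above 0.05. In progeny Sox10 ran from 0 through a median of 14.95 to 129.

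**Figure D1:**
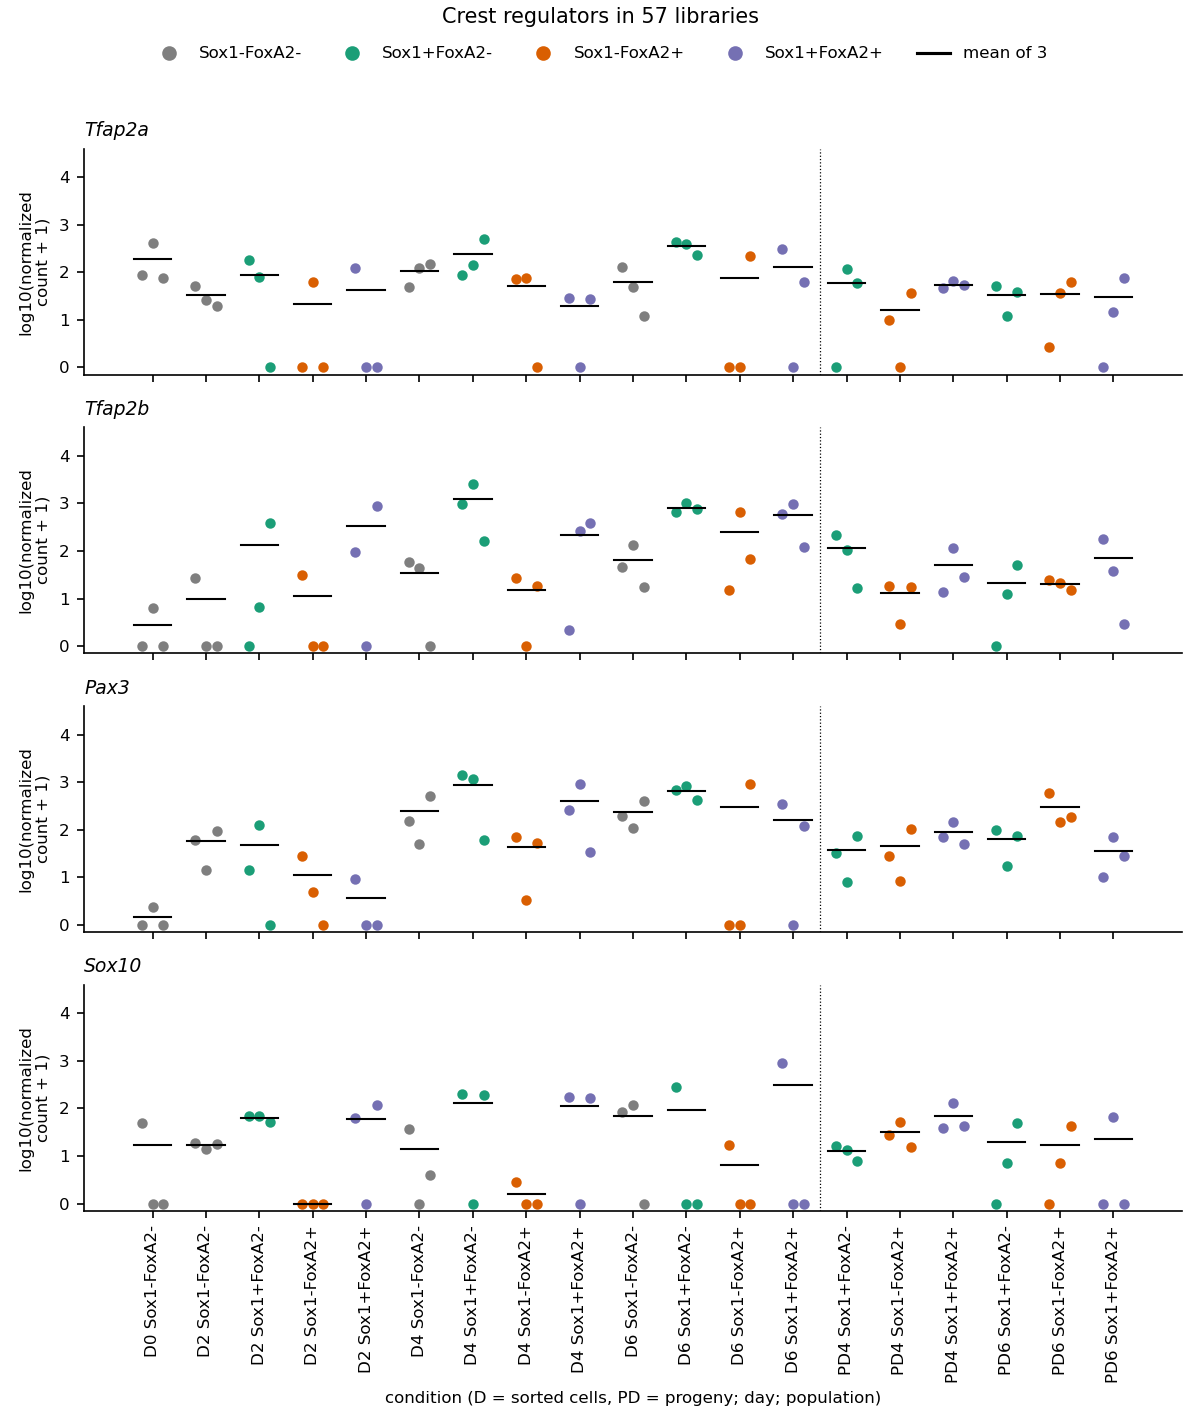
Each panel shows log10 of the normalized count plus 1 of a crest regulator in 57 libraries, by condition (points, coloured by population; bars, mean of 3), with progeny to the right of the dotted line. Tfap2b and Pax3 have their highest means in D4 and D6 Sox1+FoxA2- cells, and points at 0 are libraries without a read, 22 of them for Sox10.

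Between sorted Sox1-FoxA2+ and Sox1+FoxA2- cells no crest regulator passed the test (edgeR quasi-likelihood, adjusted p under 0.05 over all genes). At D2, 0 of 8 genes were called, as were 0% of all genes tested. At an unadjusted p under 0.05 there were 2 of the 8 (Sox10 and Postn) and 1037 genes in all. DESeq2 called 1 of the 8 (Sox10), and the 0% is the share for edgeR only. At D4 the log2 difference of Tfap2b was -6.48 (SE 2.08, adjusted p = 0.48) and that of Pax3 -4.48 (SE 1.56, adjusted p = 0.60). DESeq2 called both, with adjusted p of 0.0057 and 0.032, and over all alternatives the log2 difference ran from -7.17 to -5.28 for Tfap2b (adjusted p 0.0042 to 1.00) and from -5.05 to -3.80 for Pax3 (adjusted p 0.032 to 1.00). At D6 Pax3 differed by -1.19 (SE 1.90, adjusted p = 0.90), and without D6 Sox1-FoxA2+ replicate 3, the library with 904, Pax3 was called, with an adjusted p of 0.036 (0.036 to 0.98 over all alternatives). The other 2 libraries of that group held no Pax3 read, so that Pax3 was then at least 205-fold lower against the floor of 3 counts per library. The median log2 difference of the 4 crest regulators was -2.91 at D2, -5.48 at D4 and -1.92 at D6, against -0.02, -0.10 and -0.30 over all genes tested. That of the 4 mesenchymal genes was 2.88, 0.24 and -1.69 on these days. The 8 genes were chosen with earlier results of these data known, so such medians, here and below, are descriptions and no test. They also include sparse genes, such as Sox10 with no read in D2 Sox1-FoxA2+ cells.

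With time in the sorted arm, edgeR called Pax3 alone of the 4 crest regulators. DESeq2 called 6 of the 8 genes, Tfap2b (adjusted p = 0.03) and Sox10 among them, a count with no DESeq2 share of all genes beside it. Averaged over the 4 populations, Pax3 at D6 stood above D2 by a log2 of 3.81 (SE 1.08, adjusted p = 0.024), and the 12 D2 libraries averaged 28.7 ± 41.8 against 335 ± 325 in the 12 D6 libraries (n = 12 each). Without replicate 3 of every group the difference was 0.72 with an adjusted p of 1.00, so this call rests on those libraries. In this comparison 3 of the 8 genes were called, all higher (Pax3, Pdgfra and Postn), where 9.76% of all genes tested were called. The median difference of the 4 crest regulators was 2.55 and that of the 4 mesenchymal genes 3.21, against 0.38 over all genes. Tfap2b was not called at 2.60 (SE 1.07, adjusted p = 0.11), and leaving out a replicate moved it both ways, to 5.86 without replicate 1 (adjusted p = 0.003), 0.77 without replicate 2 (adjusted p = 0.95) and 4.73 without replicate 3 (adjusted p = 0.032). Sox10 was not called at 2.51 (SE 1.35, adjusted p = 0.26), DESeq2 called it at 6.15 (adjusted p = 0.00037), and without replicate 1 its direction turned, to -4.07.

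In double-negative cells, D6 against D0, Pax3 was again called, with 842 counts in 3 D6 libraries and 2 counts in 3 D0 libraries. The ratio of these pooled counts per unit of depth was 318 (95% exact binomial interval 87.8 to 2632, for counting error only, and too narrow if reads were counted in pairs, as the 4 counts above 0 behind it are all even), and the adjusted p was 0.027. The spread between libraries, from 109 to 400 at D6, is not in that interval. Both D0 counts were in replicate 2, and without it Pax3 was at least 47.0-fold higher at D6 against the floor of 3 counts per library. That call was lost without D0 replicate 1 (adjusted p = 0.09), D0 replicate 3 (0.075), D6 replicate 1 (0.067) or D6 replicate 3 (0.09), and with all 57 libraries in 1 fit (adjusted p = 0.05, not under the threshold). It was 1 of 8 genes called where 4.02% of all genes were. Pdgfra (4.57, SE 1.32, adjusted p = 0.063) and Postn, at 0 in all D0 libraries and at least 176-fold higher at D6 against the floor of 3 counts per library (adjusted p = 0.062), came close to the threshold. The bound for Postn rests on D6 replicate 3, the library with 1933, and without it was at least 20.9-fold (adjusted p = 0.33). Pdgfra was called in place of Pax3 without D0 replicate 1 (adjusted p = 0.0019, over all alternatives 0.00021 to 0.16). Postn was called beside Pax3 without D6 replicate 2 (adjusted p = 0.048, over all alternatives 3.9e-05 to 0.33).

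At D6 progeny held less Tfap2b than cells sorted directly on that day, averaged over the 3 shared populations. The log2 difference of progeny from sorted cells was -3.89 (SE 0.93, adjusted p = 0.0064), with a mean of 37.2 ± 54.9 against 543 ± 385 (n = 9 each). Without replicate 2 the difference was -2.32 with an adjusted p of 0.19. Tfap2b and Pdgfra were the 2 of 8 genes called here, where 14.0% of all genes tested were called, so 2 of 8 is near what the background gives. Of 6 pluripotency genes 4 were called lower there (Pou5f1, Nanog, Zfp42 and Esrrb) and 1 higher (Klf4). Of the neural progenitor genes Pax6 was lower and Nes higher, and the part of these genes was not tested. By population, Tfap2b was lower by -5.25 in Sox1+FoxA2- progeny (SE 1.72, adjusted p = 0.11), a difference that edgeR did not call with the filter on low counts. DESeq2 called it (adjusted p = 0.0018), as did edgeR without that filter (-5.15, adjusted p = 0.018). At D4, Pax3 was lower in progeny by -2.14 (SE 0.79, adjusted p = 0.098), and without replicate 3 by -3.17 with an adjusted p of 0.047.

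Pdgfra (chromosome 5, 75152292 to 75198215), the receptor for PDGF-A and PDGF-C, was the most abundant of the 8 per length, with a mean of 379 normalized counts per exon kb over 57 libraries against 72.1 for Pdgfrb and 41.3 for Prrx1. In sorted Sox1-FoxA2+ cells it stood at 32.5, 976 and 960 at D2, at 12404, 5561 and 10496 at D4, and at 23510, 15060 and 7373 at D6. In sorted Sox1+FoxA2- cells it stood at 89.0, 159 and 1.77 at D2, at 119, 1.92 and 166 at D4, and at 253, 421 and 78.6 at D6. The 2 populations overlapped at D2 and were separate at D4 and D6, where every Sox1-FoxA2+ library was above every Sox1+FoxA2- library. The D6 Sox1+FoxA2+ libraries lay between them at 999, 1785 and 7131, while those of D4 held 298, 0 and 113.

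In progeny, Pdgfra was high in all 3 populations, from 1334 through a median of 3644 to 23753 in 18 libraries. PD4 Sox1+FoxA2- cells held 2262, 2176 and 2314, PD4 Sox1-FoxA2+ cells 5626, 6622 and 4201, and PD4 Sox1+FoxA2+ cells 2000, 1692 and 1334. PD6 Sox1+FoxA2- cells held 3959, 4785 and 3329, PD6 Sox1-FoxA2+ cells 7756, 22719 and 23753, and PD6 Sox1+FoxA2+ cells 1974, 3195 and 5774. Every progeny library was above every sorted Sox1+FoxA2- library of any day. The order of the 19 means ran from PD6 Sox1-FoxA2+ (18076 ± 8952), D6 Sox1-FoxA2+ (15314 ± 8072) and D4 Sox1-FoxA2+ (9487 ± 3531) down to D0 (53.2 ± 87.5). Of its 18 neighbouring pairs 14 lay within the larger SD. The 4 steps beyond it were D4 Sox1-FoxA2+ over PD4 Sox1-FoxA2+, PD4 Sox1-FoxA2+ over PD6 Sox1+FoxA2-, PD4 Sox1+FoxA2- over PD4 Sox1+FoxA2+, and D6 Sox1-FoxA2- over D2 Sox1-FoxA2+.

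**Figure D2:**
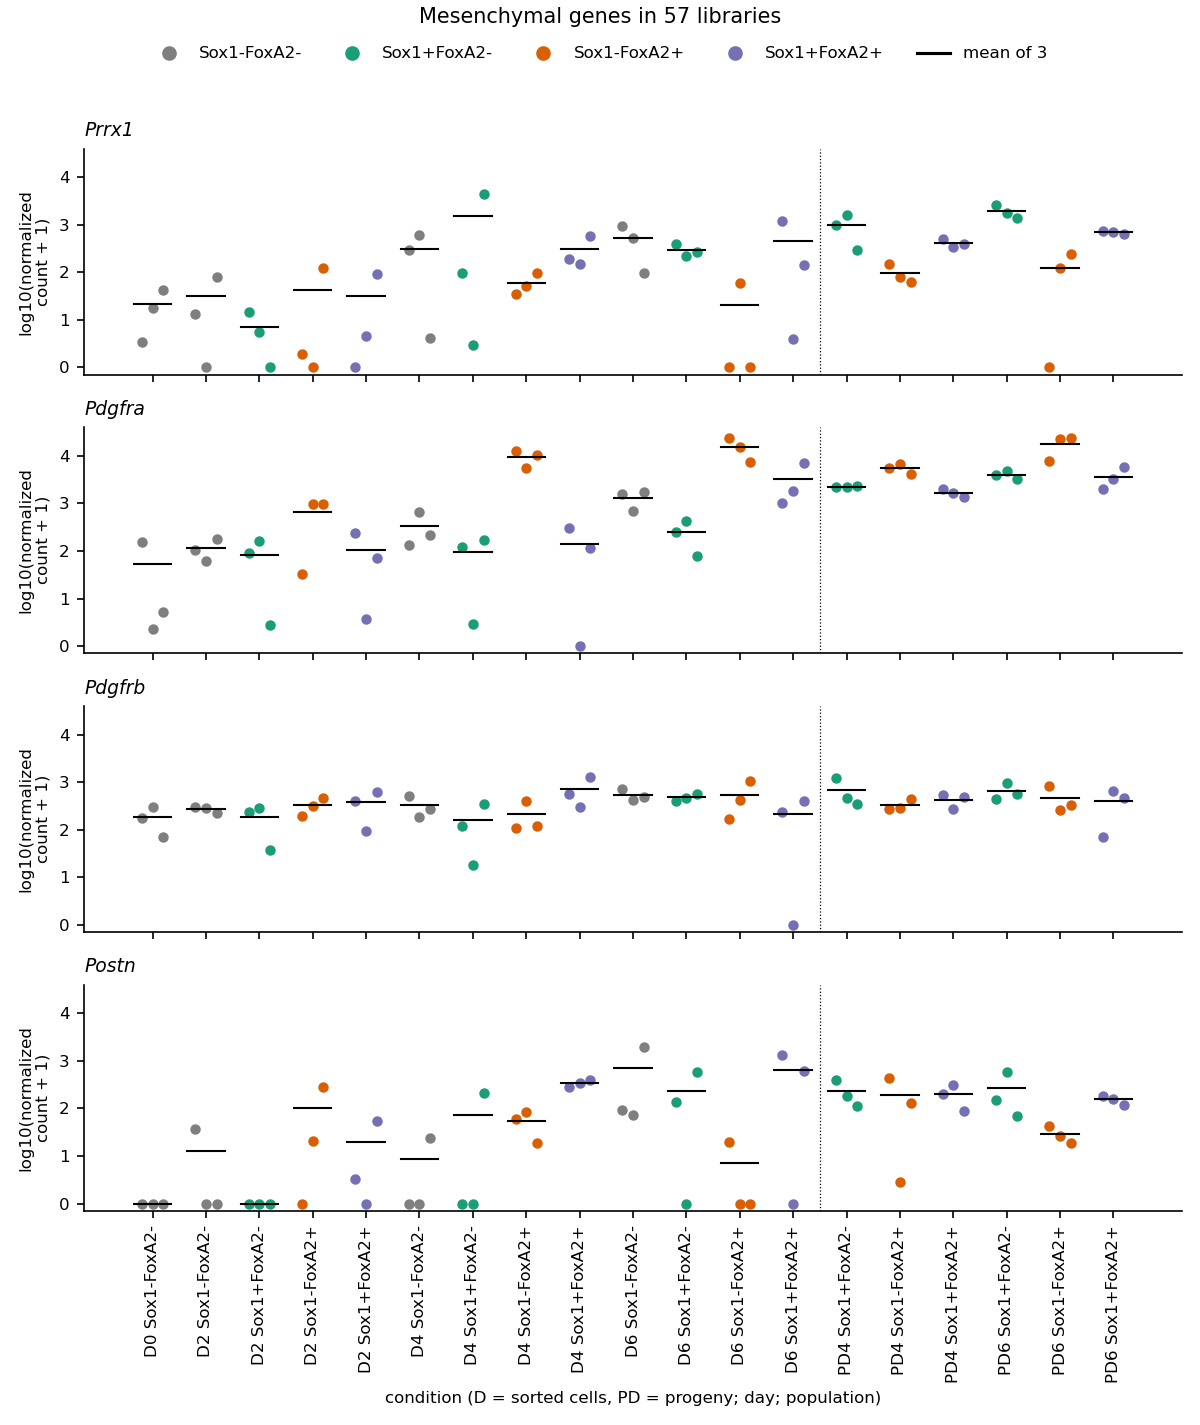
Each panel shows log10 of the normalized count plus 1 of a mesenchymal gene in 57 libraries, by condition (points, coloured by population; bars, mean of 3), with progeny to the right of the dotted line. Pdgfra is at least 1334 in all 18 progeny libraries and lowest in D0 cells, and Pdgfrb varies least between conditions.

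At D4 Pdgfra was the 1 of 8 genes called between sorted Sox1-FoxA2+ and Sox1+FoxA2- cells, where 0.227% of genes tested were called, with a log2 difference of 6.73 (SE 1.37, adjusted p = 0.046) and 3 of 3 libraries higher. It was no longer called without Sox1+FoxA2- replicate 1 (7.08, adjusted p = 0.075), Sox1+FoxA2- replicate 2 (6.18, adjusted p = 0.051), Sox1+FoxA2- replicate 3 (7.18, adjusted p = 0.069) or Sox1-FoxA2+ replicate 1 (6.49, adjusted p = 0.082), with RLE scaling (6.68, adjusted p = 0.064), or with robust dispersions, an alternative chosen after seeing the data (6.73, adjusted p = 0.52). Its adjusted p ranged from 1.8e-23 to 0.52 over all alternatives. At D6 Pdgfra was again the 1 of 8 called, against 1.09% of genes tested, with a log2 difference of 6.14 (SE 0.80, adjusted p = 0.00011), which held under every alternative tried (5.60 to 6.78). Leaving out D6 Sox1-FoxA2+ replicate 3 added Pax3 to the calls of that comparison, for 2 of 8.

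D6 Sox1+FoxA2+ cells were compared with each single-positive population, and the comparisons share the Sox1+FoxA2+ libraries. Against Sox1+FoxA2- cells 1 of 8 genes was called where 0.0992% of genes were: Pdgfra, higher by 3.59 (SE 0.71, adjusted p = 0.044). Pdgfra was not called without Sox1+FoxA2- replicate 1 (3.58, adjusted p = 0.098), Sox1+FoxA2- replicate 3 (3.21, adjusted p = 0.14) or Sox1+FoxA2+ replicate 3 (2.41, adjusted p = 0.21), the last being the library with 7131, with all 57 libraries in 1 fit (adjusted p = 0.52), or with robust dispersions (adjusted p = 0.60). Its adjusted p ranged from 8.6e-12 to 0.60 over all alternatives. Against Sox1-FoxA2+ cells edgeR called 0 of 8 genes, where 0.0454% of genes were called, with 2 of the 8 at an unadjusted p under 0.05 (Pdgfra and Postn) and 1 called by DESeq2 (Pdgfra). Pdgfra differed there by -2.55 (SE 0.68, adjusted p = 0.21), and was called without Sox1-FoxA2+ replicate 3 (-2.94, adjusted p = 0.040) or Sox1+FoxA2+ replicate 3 (-3.71, adjusted p = 0.011). With a replicate block, which takes same-numbered libraries as pairs though the labels state no pairing, its adjusted p was 0.038.

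Genes of primitive and parietal endoderm were also high in sorted Sox1-FoxA2+ cells of D4 and D6. The list of 12 (Foxa2, Gata6, Gata4, Sox17, Sox7, Dab2, Lama1, Lamb1, Col4a1, Sparc, Pth1r, Thbd) summed to 1082400, 464470 and 804777 normalized counts in D4 Sox1-FoxA2+ cells against 31450, 11945 and 13431 in D4 Sox1+FoxA2- cells. At D6 the sums were 1905920, 936641 and 967016 against 17925, 11172 and 15358, and in D6 Sox1+FoxA2+ cells 91549, 256317 and 665733. Lama1, a basement membrane laminin, was the most abundant gene of the list in D4 and D6 Sox1-FoxA2+ cells, and Thbd was at 0 in all 3 libraries of D6 Sox1+FoxA2- cells. Of the 12 genes, 6 were called higher with Pdgfra at D4 (against 0.227% of all genes called), 9 at D6 (against 1.09%) and 7 in D6 Sox1+FoxA2+ over Sox1+FoxA2- cells (against 0.0992%), and 0 were called lower. Their part in the result was not tested. In D6 Sox1-FoxA2- cells Pdgfra stood at 1559, 694 and 1739 with the list at 24348, 19176 and 17265, sums within the range of the D2 Sox1+FoxA2- and D4 Sox1+FoxA2- cells. Replicates 1 and 2 lay above all 3 D6 Sox1+FoxA2- sums, and the means of these D6 groups were 20263 and 14818.

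**Figure D3:**
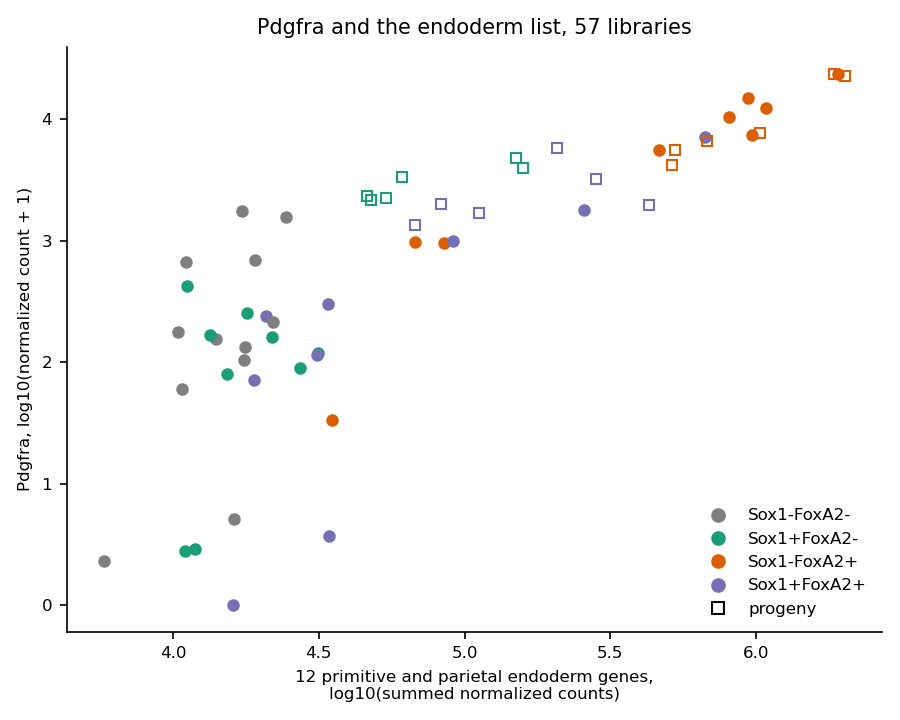
Each point is 1 of 57 libraries (circles, sorted; open squares, progeny; coloured by population), with log10 of the summed normalized counts of 12 primitive and parietal endoderm genes on the horizontal axis and log10 of the normalized count of Pdgfra plus 1 on the vertical axis. Sox1-FoxA2+ libraries of D4, D6, PD4 and PD6 lie at the upper right, with sums of at least 464470, and D6 Sox1-FoxA2- libraries have Pdgfra at 694 or more with sums of at most 24348.

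Pdgfra also differed between progeny populations. At D4, Sox1-FoxA2+ progeny were above Sox1+FoxA2- progeny by a log2 of 1.32 (SE 0.27, adjusted p = 0.015), with no overlap. Without Sox1+FoxA2- replicate 2 the adjusted p was 0.052 (1.33), and without Sox1-FoxA2+ replicate 2 it was 0.12 (1.08). At D6 the difference was 2.11 (SE 0.43, adjusted p = 0.0075), and Sox1+FoxA2+ progeny were below Sox1-FoxA2+ progeny by -2.30 (SE 0.43, adjusted p = 0.0079), the 1 of 8 genes called there where 4.48% of genes were. Without PD6 Sox1-FoxA2+ replicate 1 that count was 2, with Prrx1 added (1.96, adjusted p = 0.0061). Between Sox1+FoxA2+ and Sox1+FoxA2- progeny at D6, edgeR called 0 of 8 genes against 0.152% of genes tested, with 0 of the 8 at an unadjusted p under 0.05 and 0 called by DESeq2. From D4 to D6, averaged over the 3 progeny populations, Pdgfra rose by 1.23 (SE 0.21, adjusted p = 0.0016), the 1 of 8 called where 1.99% of genes were. With all 57 libraries in 1 fit none of these 4 Pdgfra differences was called, at 1.30 in D4 progeny (adjusted p = 1.00), 2.15 and -2.39 in D6 progeny (adjusted p = 0.82 for both) and 1.22 from D4 to D6 (adjusted p = 0.84).

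The endoderm list was highest in Sox1-FoxA2+ progeny on both days, as Pdgfra was. By mean, the other 2 progeny populations had the opposite order in the list and in Pdgfra. At PD6 their Pdgfra libraries overlapped, and the means differed by 377 against a larger SD of 1940. At PD6 the double-positive progeny had a mean sum of 305786 ± 112600 and Sox1+FoxA2- progeny one of 123585 ± 54418, with Pdgfra at 3647 ± 1940 and 4024 ± 730, and at PD4 these sums were 87721 ± 22860 and 49178 ± 3968, with Pdgfra at 1675 ± 334 and 2251 ± 69.8. The list summed to 1030020, 2016540 and 1850590 in PD6 Sox1-FoxA2+ cells, to 159128, 150690 and 60937 in PD6 Sox1+FoxA2- cells and to 428370, 282025 and 206964 in PD6 Sox1+FoxA2+ cells. In PD4 cells it summed to 528997, 679981 and 513058 in Sox1-FoxA2+, 53680, 47665 and 46187 in Sox1+FoxA2- and 83079, 112544 and 67538 in Sox1+FoxA2+ progeny. Of the 12 genes, 10 were called higher at D4 (against 1.86% of all genes called) and 12 at D6 (against 6.78%) when Sox1-FoxA2+ progeny were compared with Sox1+FoxA2- progeny, 12 were called lower in Sox1+FoxA2+ progeny of D6 against Sox1-FoxA2+ progeny (against 4.48%), and 10 rose from D4 to D6 progeny (against 1.99%). Their part in the result was not tested.

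Averaged over 3 populations, progeny held more Pdgfra than sorted cells, with a log2 difference of 2.51 at D4 (SE 0.53, adjusted p = 0.0041) and of 1.63 at D6 (SE 0.37, adjusted p = 0.0043). With an additive fit neither was called (2.79, adjusted p = 0.055, and 1.45, adjusted p = 0.096), and with all 57 libraries in 1 fit the D6 difference was not (1.72, adjusted p = 0.064). At D4 Pdgfra was the 1 of 8 called, where 7.01% of genes tested were, and without replicate 3 Pax3 joined it, for 2 of 8. In the same averages 4 of 12 endoderm genes were called higher at D4 (Gata6, Col4a1, Sparc and Thbd), against 7.01% of all genes. At D6, 5 of the 12 were higher and 1 lower, Dab2, against 14.0% of all genes, and their part was not tested. These averages join unlike populations. At D4 Sox1-FoxA2+ progeny held less Pdgfra by mean than the sorted cells (5483 ± 1217 against 9487 ± 3531), with overlapping libraries, whereas Sox1+FoxA2- progeny (2251 against 95.6) and Sox1+FoxA2+ progeny (1675 against 137) held more, and no population was tested alone at that day. In Sox1+FoxA2- cells at D6 the difference was 4.21 (SE 0.71, adjusted p = 0.0013; 3959, 4785 and 3329 against 253, 421 and 78.6), the 1 of 8 called against 3.31% of genes, and it held under every alternative tried. In Sox1-FoxA2+ cells it was 0.32 (SE 0.62, adjusted p = 0.90), where edgeR called 0 of 8 genes against 0.145% of genes, 1 of the 8 had an unadjusted p under 0.05 (Tfap2b) and DESeq2 called 0. Without replicate 2 that count was 1, which was Prrx1 (adjusted p = 0.041, over all alternatives 0.041 to 1.00), then at 0 in both sorted libraries and in progeny replicate 1. The mean of the 2 progeny libraries was at least 33.4-fold higher against the floor of 3 counts per library, which rests on replicate 3 alone. In Sox1+FoxA2+ cells the difference was 0.36 (SE 0.62, adjusted p = 0.79), where edgeR called 0 of 8 against 2.17% of genes, 0 of the 8 had an unadjusted p under 0.05 and DESeq2 called 0. These comparisons were adjusted separately.

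The test of the difference between 2 of these differences, Sox1-FoxA2+ minus Sox1+FoxA2-, gave -3.89 for Pdgfra (SE 0.91, unadjusted p = 0.00028 and adjusted p = 0.19 with edgeR). In that test 0 of 8 genes were called, where 0.0196% of genes were, with 1 of the 8 at an unadjusted p under 0.05. DESeq2 called 1, which was Pdgfra (adjusted p = 0.0015), and edgeR called it without replicate 3 (-4.21, adjusted p = 0.049). The difference between the populations in their progeny change is thus not shown at the threshold used. In Sox1+FoxA2- cells 8 of 12 endoderm genes were called higher in progeny than in sorted cells at D6 (against 3.31% of all genes called), and in Sox1-FoxA2+ cells 0 of 12 (against 0.145%).

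Prrx1 (chromosome 1, 163245119 to 163313710) had its highest mean in PD6 Sox1+FoxA2- cells. It stood at 970, 1626 and 292 in PD4 and at 2613, 1728 and 1353 in PD6 Sox1+FoxA2- cells. Sox1-FoxA2+ progeny held 151, 79.0 and 61.4 at PD4 and 0, 119 and 245 at PD6. Sox1+FoxA2+ progeny lay between by mean, with 511, 335 and 396 at PD4, all above PD4 Sox1+FoxA2- replicate 3, and 744, 718 and 638 at PD6. The Sox1+FoxA2- and Sox1-FoxA2+ libraries did not overlap on either day, and all 3 PD6 Sox1+FoxA2+ libraries lay below the PD6 Sox1+FoxA2- and above the PD6 Sox1-FoxA2+ libraries.

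In sorted cells the highest of all libraries was D4 Sox1+FoxA2- replicate 3 at 4435, in a group whose other libraries held 94.1 and 1.92. That library had the lowest Tfap2b and Pax3 of its group, 161 and 61.0, and the highest Tfap2a, 503. D6 Sox1+FoxA2- cells held 385, 215 and 271, D6 Sox1-FoxA2- cells 960, 522 and 96.8, D6 Sox1+FoxA2+ cells 1195, 3.03 and 142, and D6 Sox1-FoxA2+ cells 0, 58.9 and 0. In the order of Prrx1 means, PD6 Sox1+FoxA2- (1898 ± 647) came before D4 Sox1+FoxA2- (1510 ± 2533) and PD4 Sox1+FoxA2- (963 ± 667), and D2 Sox1+FoxA2- was lowest (6.01 ± 6.90). Of 18 neighbouring pairs 17 lay within the larger SD, and D6 Sox1+FoxA2- exceeded PD6 Sox1-FoxA2+ by more.

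Among progeny, Prrx1 was lower in Sox1-FoxA2+ cells, against Sox1+FoxA2- cells, by a log2 of -3.34 at D4 (SE 0.61, adjusted p = 0.0063) and -4.04 at D6 (SE 0.98, adjusted p = 0.022), opposite in direction to Pdgfra in the same libraries. At D4 these were the 2 of 8 genes called, against 1.86% of genes tested. Leaving out Sox1+FoxA2- replicate 2 or Sox1-FoxA2+ replicate 2 left 1, which was Prrx1. At D6, Prrx1, Pdgfra and Postn were the 3 of 8 genes called, against 6.78% of genes. At D6 Prrx1 was not called without Sox1+FoxA2- replicate 1 (-3.66, adjusted p = 0.084) and without Sox1-FoxA2+ replicate 2 (-4.06, adjusted p = 0.059), and each of these left 1 of 8 called. With all 57 libraries in 1 fit Prrx1 was called neither at D4 (-3.33, adjusted p = 1.00) nor at D6 (-4.00, adjusted p = 0.79), and with robust dispersions it was not called at D6 (adjusted p = 0.12). Prrx1 in Sox1+FoxA2+ progeny at D6 was not called against Sox1+FoxA2- (-1.50, SE 0.88, adjusted p = 0.65) or Sox1-FoxA2+ progeny (2.54, SE 0.92, adjusted p = 0.16), although neither pair overlapped. Without a filter on low counts edgeR called both (-1.50, adjusted p = 0.0038, and 2.54, adjusted p = 2.3e-09). Between D6 progeny and sorted cells Prrx1 differed by 2.20 (SE 0.87, adjusted p = 0.092), and without replicate 2 by 4.52 (adjusted p = 0.0019). In sorted cells at D4 the difference between Sox1-FoxA2+ and Sox1+FoxA2- was -4.41 (SE 1.76, adjusted p = 0.87), and 0.19 without Sox1+FoxA2- replicate 3. From D2 to D6 over the 4 sorted populations Prrx1 differed by 2.95 (SE 1.10, adjusted p = 0.079), without replicate 2 by 0.77 (adjusted p = 1.00) and without replicate 3 by 6.37 (adjusted p = 0.0092). It was called there with DESeq2 (3.10, adjusted p = 0.01), without a filter on low counts (2.93, adjusted p = 0.0067), with a replicate block (4.07, adjusted p = 0.043) and with all 57 libraries in 1 fit (2.90, adjusted p = 0.027).

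Smooth muscle and pericyte genes had their highest mean sums in Sox1+FoxA2- progeny of both days. The 8 genes (Acta2, Tagln, Cnn1, Myh11, Des, Cspg4, Rgs5, Kcnj8) summed to 72548, 60659 and 53934 in PD6 Sox1+FoxA2- cells, 3923, 8114 and 11991 in PD6 Sox1-FoxA2+ cells and 22474, 10291 and 23820 in PD6 Sox1+FoxA2+ cells. In PD4 cells they summed to 50890, 91445 and 38446 in Sox1+FoxA2-, to 16992, 26179 and 23498 in Sox1-FoxA2+ and to 36432, 41091 and 27775 in Sox1+FoxA2+ progeny. Acta2, smooth muscle actin, was the most abundant in all 6 progeny conditions, and Kcnj8, a pericyte channel, was at 0 in all libraries of 3 of them. Of these genes, 2 of 7 tested were called lower in Sox1-FoxA2+ progeny at D4 (against 1.86% of all genes called) and 4 of 8 at D6 (against 6.78%). In PD4 Sox1-FoxA2+ cells the mean sum (22223, with Prrx1 at 97.2) was above that in PD6 Sox1+FoxA2+ cells (18862, with Prrx1 at 700). In sorted D4 Sox1+FoxA2- cells the sum was 4177, 781 and 3306 in replicates 1, 2 and 3, with Prrx1 at 94.1, 1.92 and 4435. The part of these genes in the result was not tested.

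Postn (chromosome 3, 54361109 to 54391037) was at 0 in all D0 and all D2 Sox1+FoxA2- libraries. D6 Sox1-FoxA2- cells had the highest mean, 700 ± 1068, from 93.3, 72.9 and 1933, followed by D6 Sox1+FoxA2+ cells with 1321, 0 and 617. D4 Sox1+FoxA2+ cells held 285, 341 and 402, the tightest of the sorted groups with a high mean. All 18 neighbouring pairs in its order lay within the larger SD. In D6 progeny Sox1+FoxA2- cells held 147, 595 and 67.6 and Sox1-FoxA2+ cells 41.4, 24.7 and 17.96, without overlap, and the log2 difference was -3.32 (SE 0.89, adjusted p = 0.039). The call did not hold without Sox1+FoxA2- replicate 1 (-3.60, adjusted p = 0.061), Sox1+FoxA2- replicate 2 (-1.95, adjusted p = 0.48), Sox1-FoxA2+ replicate 2 (-3.24, adjusted p = 0.14) or Sox1-FoxA2+ replicate 3 (-3.07, adjusted p = 0.15), or with all 57 libraries in 1 fit (-3.29, adjusted p = 0.84). It was also lost with a replicate block (-2.96, adjusted p = 0.081). Same-numbered libraries of this comparison correlated at 0.098 to 0.473 in their deviations from the group mean, and the labels state no pairing. From D2 to D6 over the 4 sorted populations Postn rose by 4.36 (SE 1.41, adjusted p = 0.044), a call lost without replicate 1 (4.28, adjusted p = 1.00) or replicate 3 (4.94, adjusted p = 0.14). Pdgfra rose in the same comparison by 3.48 (SE 0.62, adjusted p = 0.00072) under every alternative tried (3.34 to 3.70), and 8 of the 12 endoderm genes were called higher there (against 9.76% of all genes called). Of 8 surface ectoderm genes 3 were also higher (Trp63, Krt8 and Krt18), and of 8 smooth muscle and pericyte genes 2 (Acta2 and Tagln). The part of these 3 lists was not tested.

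Pdgfrb (chromosome 18, 61045150 to 61085061), the receptor of pericytes and smooth muscle precursors, had the smallest ratio of highest to lowest condition mean of the 8. It ran from 0 to 1308 over 57 libraries with a median of 349, was above the floor in all but D6 Sox1+FoxA2+ replicate 2, and was called in no comparison. Its means ran from 161 ± 170 in D4 Sox1+FoxA2- to 726 ± 521 in D4 Sox1+FoxA2+ cells, and all 18 neighbouring pairs lay within the larger SD. At D0, in cells before retinoic acid, it already stood at 179, 305 and 70.3. The 2 PDGF receptors thus differed in range, Pdgfra reaching 2574 normalized counts per exon kb and Pdgfrb 239.

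Per exon kb, the balance between the crest and the mesenchymal genes differed between conditions. In sorted Sox1+FoxA2- cells the 4 crest regulators summed to 481, 643 and 296 per kb at D4 and 478, 451 and 279 at D6, against 43.8, 3.56 and 553 and 156, 154 and 206 for the 4 mesenchymal genes. The crest share of the 8-gene sum was 91.7%, 99.4% and 34.9% at D4 and 75.4%, 74.6% and 57.6% at D6. In 5 of these 6 libraries crest exceeded mesenchyme, and the exception was D4 replicate 3, the library with the high Prrx1. In D6 progeny of the same gate the crest share was 4.29%, 1.15% and 7.64%, and in D4 progeny 6.80%, 11.6% and 9.92%, so sorted and progeny libraries did not overlap. Every one of 18 progeny libraries had a crest share of 26.4% or less, and Pdgfra was the top mesenchymal gene in each. A crest excess was not particular to D4 and D6 Sox1+FoxA2- cells. In D2 Sox1+FoxA2- cells the share was 63.4%, 51.8% and 91.8%. It was also above 50% in D4 Sox1-FoxA2- replicate 3 (65.3%). Among Sox1+FoxA2+ cells it was so in D2 replicate 3 (56.4%), D4 replicate 2 (63.0%) and D6 replicate 1 (57.6%).

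Sox1-FoxA2+ cells had low crest shares in both arms, 3.13%, 4.16% and 0.9498% at D4 and 0.293%, 5.85% and 19.7% at D6 in sorted cells, and 8.99%, 1.66% and 2.57% in D6 progeny. Pdgfra alone made up most of this. Without Pdgfra the mean crest share was 37.0% ± 20.2 in D4 Sox1-FoxA2+ cells and 43.7% ± 21.5 in D6 Sox1-FoxA2+ cells, and 41.3% ± 2.95 in PD6 Sox1-FoxA2+ cells, against 76.4% ± 35.4 and 72.7% ± 12.2 in D4 and D6 Sox1+FoxA2- cells and 9.46% ± 7.19 in PD6 Sox1+FoxA2- cells. Without Pdgfra the Sox1+FoxA2- progeny therefore had the lowest crest share of the D6 progeny, where Prrx1 was high. The D0 cells had a crest share of 62.0% ± 11.7 on small sums (49.7, 159 and 29.2 per kb of crest), which were led by Tfap2a in all 3 libraries. The shares are descriptions, with no test, and rest on exon length as the length counted.

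**Figure D4:**
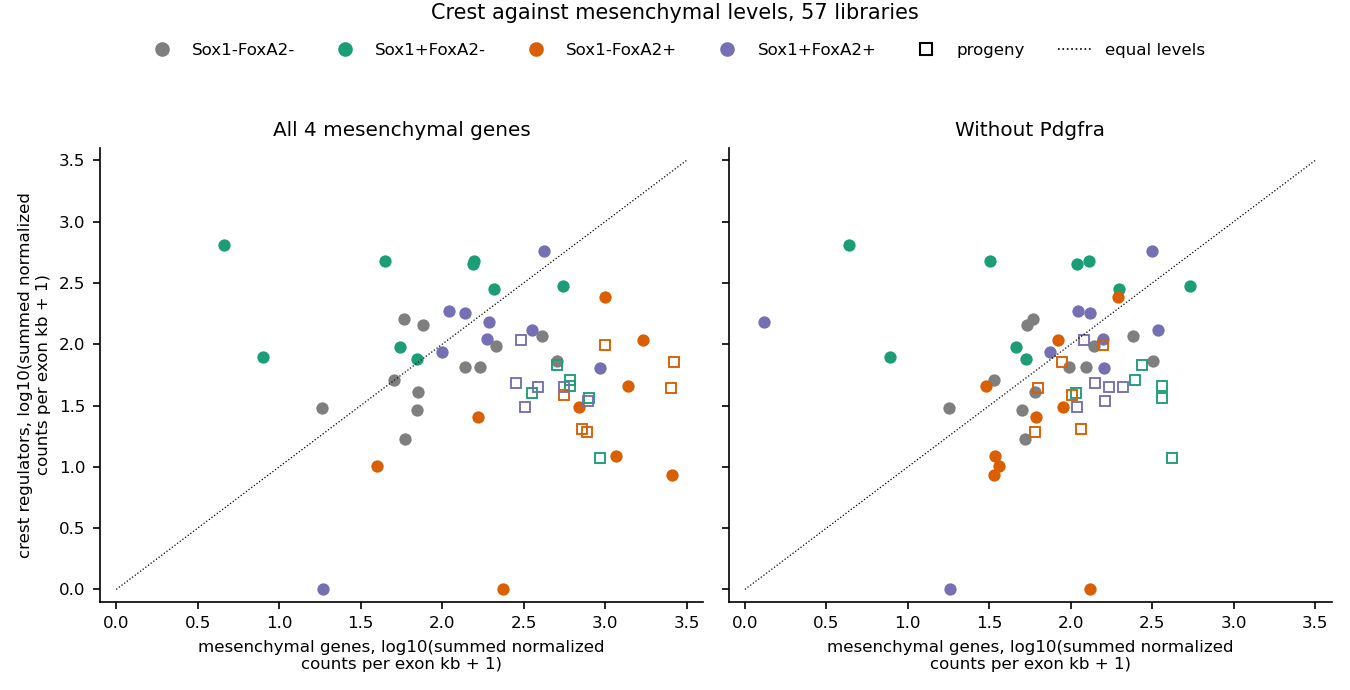
Each point is 1 of 57 libraries (circles, sorted; open squares, progeny; coloured by population), with log10 of the summed normalized counts per exon kb plus 1 of the mesenchymal genes (left, all 4; right, without Pdgfra) on the horizontal axis and of the 4 crest regulators on the vertical axis; the dotted line marks equal levels. Of the 6 D4 and D6 sorted Sox1+FoxA2- libraries 5 lie above the line in the left panel, and all 18 progeny libraries lie below it. Sorted libraries of other populations and days also lie above it, those of D2 Sox1+FoxA2- among them.

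Beyond the 4 regulators, 18 other genes of the crest and the neural plate border (Tfap2c, Pax7, Zic1, Msx1, Msx2, Dlx5, Gbx2, Foxd3, Snai1, Snai2, Sox8, Sox9, Ets1, Twist1, Ednrb, Ngfr, Erbb3, Mitf) were counted in each comparison. Between sorted Sox1-FoxA2+ and Sox1+FoxA2- cells edgeR called 0 of 16 tested at D2, 0 of 16 at D4 and 0 of 17 at D6, against 0%, 0.227% and 1.09% of all genes, with 3, 0 and 3 at an unadjusted p under 0.05. In D4 progeny, where 1.86% of all genes were called, 0 of 16 were higher and 2 lower, Twist1 (-1.73, SE 0.40, adjusted p = 0.034) and Sox9 (-1.38, SE 0.29, adjusted p = 0.019). In D6 progeny, where 6.78% were called, 2 of 17 were higher, Snai1 (2.93) and Mitf (1.54), and 4 lower, Dlx5 (mean level 1.20 against 82.1), Snai2 (-4.37), Sox9 (-2.73) and Twist1 (-2.44), with a median of -1.37 over the list against -0.04 over all genes. Sox9, Twist1 and Snai2 are transcription factors shared by crest and mesenchyme. In D6 progeny they were called lower in Sox1-FoxA2+ cells, as Prrx1 was.

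Between D6 Sox1+FoxA2+ and Sox1-FoxA2+ progeny, which share the latter libraries with the comparison above, Sox9 (3.21) and Ets1 (1.09) were higher and Snai1 (-2.93) and Mitf (-1.21) lower, 4 of 17 where 4.48% of all genes were called. Progeny differed from sorted cells at D6 in 3 of 17 (17.6%, against 14.0% of all genes), with Sox9 (2.96) and Ets1 (2.58) higher and Mitf (-0.83) lower, and at D4 in 4 of 17 (23.5%, against 7.01%), with Sox9 (2.42) and Ets1 (1.47) higher and Ednrb (-3.61), the endothelin receptor of migrating crest, and Gbx2 (-2.21) lower. In D6 against D2 sorted cells 1 of 17 was called (5.88%, against 9.76%), Gbx2, a factor of the midbrain-hindbrain boundary, lower by -3.20, and in D6 against D0 double-negative cells 2 of 16 where 4.02% of all genes were called, Twist1 (mean level 1247 against 3.32) and Ets1 (1.97), both higher. From D4 to D6 progeny Snai1 (1.71) and Ets1 (0.72) rose and Sox9 (-1.16) fell, 3 of 17 (17.6%, against 1.99%).

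Another 20 mesenchyme genes (Prrx2, Twist2, Meox1, Meox2, Foxc1, Foxc2, Foxf1, Osr1, Tcf21, Tbx18, Col1a1, Col1a2, Col3a1, Lum, Dcn, Lox, Thy1, Fap, Fbn1, Tgfbi) were counted in the same way. In D4 Sox1-FoxA2+ against Sox1+FoxA2- progeny, where 1.86% of all genes were called, 0 of 16 tested were higher and 2 lower, Col1a2 (-2.31, SE 0.33, adjusted p = 0.00084) and Tgfbi (-2.26, SE 0.46, adjusted p = 0.015). In D6 progeny, where 6.78% were called, 0 of 16 were higher and 3 lower, Col1a1 (-3.42), Osr1 (-2.81) and Col3a1 (-2.75), with a median of -1.85 against -0.04 over all genes. Col1a1 averaged 2160 in PD6 Sox1-FoxA2+ cells and 22173 in PD6 Sox1+FoxA2- cells. In the sorted pairs edgeR called 0 of 16 at D2, 0 of 16 at D4 and 0 of 17 at D6, against 0%, 0.227% and 1.09% of all genes, with 2, 1 and 5 at an unadjusted p under 0.05. At D6 Col3a1 was the 1 of 17 called in Sox1+FoxA2+ cells against Sox1+FoxA2- (4.86, where 0.0992% of all genes were called) and against Sox1-FoxA2+ cells (7.41, where 0.0454% were).

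Between progeny and sorted cells 31.2% of the mesenchyme genes tested were called at D4 and 35.3% at D6, against 7.01% and 14.0% of all genes. By population at D6 they were 2 of 17 in Sox1-FoxA2+ cells (against 0.145% of all genes), 2 of 17 in Sox1+FoxA2- cells (against 3.31%) and 0 of 17 in Sox1+FoxA2+ cells (against 2.17%, with 1 at an unadjusted p under 0.05). In the averages 4 of 7 smooth muscle and pericyte genes at D4 and 5 of 8 at D6 were also called higher, as were Krt8 and Krt18 of the surface ectoderm list on both days. Of 6 pluripotency genes, Esrrb was lower at D4, and Pou5f1, Nanog, Zfp42 and Esrrb were lower and Klf4 higher at D6. Pax6 was lower and Nes higher on both days, and Tcf15 and Pecam1 were lower at D6. The part of all these genes was not tested. Of the mesenchyme genes at D4, 4 of 16 were higher, Col3a1 (6.55), Col1a1 (5.02), Tbx18 (4.34) and Col1a2 (2.42), and 1 lower, Meox1 (-3.56), a somite factor. Their median was 1.48 against -0.21 over all genes. At D6, 5 of 17 were higher, Col1a1 (5.53), Col3a1 (4.58), Osr1 (2.93), Col1a2 (2.61) and Fbn1 (1.23), and Meox1 was lower (-2.74), with a median of 0.17 against -0.21. In D6 against D2 sorted cells 3 of 17 rose (17.6%, against 9.76% of all genes called), Col3a1 (4.78), Dcn (4.77) and Fap (3.72). Between D6 and D0 double-negative cells 3 of 16 rose (18.8%, against 4.02%), Col3a1 and Col1a2, with mean levels of 9111 against 1.71 and 1822 against 0.879, and Foxc1, with 278 against 0. In progeny, Twist2 was higher at D6 in Sox1+FoxA2+ cells against Sox1-FoxA2+ cells (4.31), and Prrx2, a paralogue of Prrx1, fell from D4 to D6 (-1.52), each the 1 of 16 called (6.25%, against 4.48% and 1.99% of all genes).

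Among 7 other genes of the PDGF and AP-2 families (Pdgfa, Pdgfb, Pdgfc, Pdgfd, Pdgfrl, Tfap2d, Tfap2e), the ligands of Pdgfra that were called ran opposite to the receptor between D6 progeny populations. In D6 Sox1-FoxA2+ against Sox1+FoxA2- progeny, where 6.78% of all genes were called, 0 of 7 were higher and 2 lower, Pdgfc (-3.27, SE 0.38, adjusted p = 0.00016; mean 967 against 8928) and Pdgfa (-1.14, SE 0.29, adjusted p = 0.03; mean 769 against 1655), where Pdgfra was higher. In D6 Sox1+FoxA2+ against Sox1-FoxA2+ progeny Pdgfc was higher by 2.91, the 1 of 7 called (14.3%, against 4.48% of all genes), where Pdgfra was lower. These comparisons share the Sox1-FoxA2+ libraries. Between progeny and sorted cells, averaged over 3 populations, Pdgfc (1.73 at D4, 2.64 at D6) and Pdgfa (1.21 and 1.60) were higher in progeny at both days and Pdgfd (1.38), a ligand of Pdgfrb, at D6, 2 of 7 at D4 (28.6%, against 7.01% of all genes) and 3 of 7 at D6 (42.9%, against 14.0%). By population at D6, Pdgfc and Pdgfra were both called higher in Sox1+FoxA2- progeny (3.77, adjusted p = 0.00084, and 4.21, where 3.31% of all genes were called). In Sox1+FoxA2+ cells Pdgfc was called (2.55, adjusted p = 0.018) and Pdgfra was not (0.36), where 2.17% were called. In Sox1-FoxA2+ cells edgeR called 0 of 7 (against 0.145% of all genes), with 3 of 7 at an unadjusted p under 0.05. In D4 progeny and in the sorted Sox1-FoxA2+ against Sox1+FoxA2- comparisons of D2, D4 and D6, edgeR called 0 of 7 (against 1.86%, 0%, 0.227% and 1.09% of all genes), with 1 of 7 at an unadjusted p under 0.05 in each of these 4 comparisons. From D2 to D6 in sorted cells Pdgfc rose by 1.12 and from D4 to D6 in progeny Pdgfd by 1.26, each the 1 of 7 called (14.3%, against 9.76% and 1.99% of all genes).

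Marker lists of other cell types were summed in each library. Pluripotency genes (6 genes) were highest at D0 with a mean sum of 69167 ± 28679, led by Zfp42, and ran from 1983 to 23256 by mean in the other conditions. They were still at 23838 in D2 Sox1+FoxA2- replicate 3, against 2517 and 4694 in replicates 1 and 2, the library with Tfap2b at 389 where those held 0 and 5.61. Neural progenitor genes (7 genes, of which Sox1 and Sox2 have 0 counts in every condition) were led by Nes in all conditions but D2 Sox1+FoxA2-, where Pax6 led, were highest in PD4 Sox1+FoxA2- cells (24481 ± 12531), and had sums of 12199, 16924 and 4230 in D4 and 7382, 8155 and 2654 in D6 Sox1+FoxA2- cells, the lowest being replicate 3 on both days. Surface ectoderm genes (8 genes), led by Krt8 or Krt18 in all conditions, ran from a mean sum of 2621 in D2 Sox1+FoxA2- to 51751 in PD4 Sox1-FoxA2+ cells. At D4 and D6 sorted Sox1+FoxA2- cells, where Tfap2a was highest, they stood at 7659 ± 1785 and 9199 ± 4730.

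Paraxial and lateral mesoderm genes (7 genes) had mean sums from 204 in PD6 Sox1+FoxA2+ to 2793 in D0 cells, and Mesp1, T or Hand2 was at 0 in all 3 libraries of many conditions. In D6 Sox1-FoxA2+ cells, where Prrx1 was at 0 in replicates 1 and 3, T, Mesp1, Hand1 and Hand2 were at 0 in all 3 libraries. Endothelial and blood genes (6 genes) had mean sums from 1027 to 5217. Glial and melanocyte genes (6 genes), the later products of crest, had mean sums from 360 to 2312 and were led by Mbp in every condition. Their largest sum among D6 sorted libraries, 3213, was in D6 Sox1+FoxA2+ replicate 1, the library with Sox10 at 919. That library also held 1195 of Prrx1 and 1321 of Postn, the highest of its group for each, and no Foxa2. Its mesoderm sum (3296) and its smooth muscle and pericyte sum (5822) were also the largest of the D6 sorted libraries. The part of these cell types in the levels of the 8 genes was not tested.

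For each of the 8 genes, the genes with the most similar condition means (Pearson correlation of log2 of the normalized count plus 1, over 19 conditions, among 16644 genes) were Clca4a (0.882), Gipr (0.818) and Tdgf1 (0.777) for Tfap2a, and Gm36736 (0.891), C6 (0.889) and Gm14461 (0.864) for Tfap2b. For Pax3 they were Gm15270 (0.867), Mcub (0.847) and C1qtnf3 (0.837), and for Sox10 Sp140 (0.737), Cep83os (0.730) and Mier2 (0.721). For Prrx1 they were Zfp827 (0.912), Marcks (0.911) and Npr3 (0.902), for Pdgfra Rras2 (0.933), Sparc (0.928) and Efemp2 (0.923), for Pdgfrb Itgb1bp2 (0.858), Bcl10 (0.822) and Wac (0.806), and for Postn Samd5 (0.935), Usp29 (0.891) and Prickle2 (0.889). Sparc is a gene of the endoderm list. Among the 8 genes themselves the highest correlation was between Prrx1 and Postn (0.813, 19 conditions), whereas Tfap2b and Pax3 reached 0.543 and Pdgfra and Pdgfrb 0.237. The 19 means come from libraries of unequal sparsity, and these values are descriptions.

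Promoter sequences (250 bases before to 50 after the start, RefSeq, GRCm38.p6) were on file for 5 of the 8 genes, Tfap2a, Tfap2b, Prrx1, Pdgfra and Postn, with 7 entries in all. The AP-2 motif GCCNNNGGC, searched on both strands because AP-2 factors are among the 8 genes, was in 1 of the 7 entries, and 16.6% of 32851 promoters of that length hold it. The CArG box, the element bound by serum response factor, was in 0 of 7 against 1.63% of promoters, and the retinoic acid type direct repeat with a spacer of 5 bases in 0 of 7 against 0.00913%. The 2 sequences below are of the gene with the widest range, Pdgfra (chr5:75152001-75152300, plus strand, GC 51.0%), which holds none of the motifs, and of Postn (chr3:54360857-54361156, plus strand, GC 53.0%), whose AP-2 match is in capitals. The median GC of all promoters was 52.7%. A match is a stretch of letters only.
Pdgfra: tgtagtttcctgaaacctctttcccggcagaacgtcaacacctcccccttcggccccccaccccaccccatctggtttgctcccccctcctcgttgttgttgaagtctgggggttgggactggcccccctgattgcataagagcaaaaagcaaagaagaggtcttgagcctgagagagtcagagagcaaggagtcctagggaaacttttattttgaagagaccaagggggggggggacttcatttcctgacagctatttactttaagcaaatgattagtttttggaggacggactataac
Postn: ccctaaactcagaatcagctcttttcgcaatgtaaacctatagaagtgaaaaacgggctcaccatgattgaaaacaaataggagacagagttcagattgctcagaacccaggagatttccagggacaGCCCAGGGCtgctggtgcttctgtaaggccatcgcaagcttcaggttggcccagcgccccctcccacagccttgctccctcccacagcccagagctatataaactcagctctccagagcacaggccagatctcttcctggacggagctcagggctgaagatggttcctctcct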

How the data were processed

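The authors aligned reads with STAR, handled alignments with SAMtools and counted them per gene with featureCounts (versions not stated), and the deposited table holds raw counts, 1 count being a read or fragment assigned to a gene. Gene IDs were matched to GENCODE M21 (GRCm38). Genes passing filterByExpr in edgeR 4.0.16 were compared with TMM scaling and the quasi-likelihood test, with Benjamini-Hochberg adjusted p under 0.05 over all genes tested. DESeq2 1.42.0 (Wald test) was an alternative, and its size factors over 57 libraries gave normalized counts. Shares of all genes called are those of the edgeR fits, so counts by DESeq2 stand without a share of their own. R was 4.3.3 and Python 3.11.15. The 8 genes, 8 marker lists and 3 pathway lists were chosen with earlier results of these data known, and 2 genes first planned for the crest list were left out after its results were seen, for a reason that does not depend on their values. Genes named are the 8 genes, Foxa2, Sox1, Sox1ot, the members of lists printed in full and the 3 genes nearest each in pattern. From the other marker lists, genes that were called, most abundant or at 0 in all 3 libraries of a condition are named. Called list genes are named up to 6 per direction. Promoters are from RefSeq (GRCm38.p6).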

Additional observations from a re-analysis of the deposited data

How the results depend on the processing

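Of 18 log2 differences of the 8 genes that were called, 155 of 195 alternatives kept the direction and the call, 40 kept the direction without the call and 0 reversed it. Another 23 differences were not called, and each of these was called under at least 1 alternative. Their split therefore does not describe uncalled differences in general. Of their alternatives, 198 of 251 left them uncalled, 51 made them called and 2 reversed the direction. The 2 reversed were Prrx1 between sorted Sox1-FoxA2+ and Sox1+FoxA2- cells at D4 (0.19 without D4 Sox1+FoxA2- replicate 3, with a range of -5.01 to 0.19 when any 1 library was left out) and Sox10 between D6 and D2 sorted cells (-4.07 without replicate 1, with a range of -4.07 to 3.31). The number of the 8 genes called moved by more than 1.5 times as follows, and the cause was not tested. With DESeq2 it was 1 at D2 and 3 at D4 between sorted Sox1-FoxA2+ and Sox1+FoxA2- cells, 1 between D6 sorted Sox1+FoxA2+ and Sox1-FoxA2+ cells, 3 between those D6 progeny, 2 between D4 progeny and sorted cells, 2 between them at D6 in Sox1+FoxA2- cells, 1 in the test of the difference of differences, 6 between D6 and D2 sorted cells and 3 between D6 and D0 cells. Without a filter on low counts it was, in the same order from D4 on, 3, 2, 3, 2, 3, 1, 5 and 4, and 1 between D6 Sox1+FoxA2+ and Sox1+FoxA2- progeny. With RLE scaling it was 0 at D4. With a replicate block it was 1 between D6 sorted Sox1+FoxA2+ and Sox1-FoxA2+ cells and 3 between D6 and D0 cells. The labels number the replicates and state no pairing. Same-numbered libraries were treated as paired where their deviations from the group mean correlated above 0.1 in every replicate and pair of groups. Between D6 Sox1-FoxA2+ and Sox1+FoxA2- progeny the lowest correlation was 0.098, just under that mark. In the 6 of 18 comparisons that met the rule, the block kept the count. Within 1.5 times, it went from 3 to 2 between D6 Sox1-FoxA2+ and Sox1+FoxA2- progeny with the block and with robust dispersions, from 3 to 4 between D6 and D2 sorted cells with the block and with all 57 libraries in 1 fit, and from 2 to 3 between D6 progeny and sorted cells without the filter. With the block Postn in D6 progeny differed by -2.96 (adjusted p = 0.081, over all alternatives 0.00083 to 0.84). With robust dispersions, an alternative chosen after seeing the data, it was 0 between sorted Sox1-FoxA2+ and Sox1+FoxA2- cells at D4 and 0 between D6 sorted Sox1+FoxA2+ and Sox1+FoxA2- cells. With all 57 libraries in 1 fit it was 0 in the latter, 0 between Sox1-FoxA2+ and Sox1+FoxA2- progeny at D4 and at D6, 0 between D6 Sox1+FoxA2+ and Sox1-FoxA2+ progeny, 1 between D6 progeny and sorted cells, 0 between D6 and D4 progeny and 2 between D6 and D0 cells. With an additive fit it was 0 at D4 and 1 at D6 between progeny and sorted cells. Leaving out 1 library or replicate gave, for Sox1-FoxA2+ against Sox1+FoxA2- cells, 0 to 0 at D2, 0 to 1 at D4 and 1 to 2 at D6 in sorted cells, and 1 to 2 at D4 and 1 to 3 at D6 in progeny. For D6 Sox1+FoxA2+ cells it gave 0 to 1 against either sorted population, and in progeny 0 to 0 against Sox1+FoxA2- and 1 to 2 against Sox1-FoxA2+ cells. For progeny against sorted cells the count was 1 to 2 at D4, 2 to 2 at D6, and within D6 it was 0 to 1 in Sox1-FoxA2+, 1 to 1 in Sox1+FoxA2- and 0 to 0 in Sox1+FoxA2+ cells, and 0 to 1 for the difference of differences. Over time it gave 1 to 1 in progeny, 3 to 3 in sorted cells and 0 to 2 from D0 to D6. In sorted cells Tfap2b replaced Postn without replicate 1, and Tfap2b and Prrx1 replaced Pax3 and Postn without replicate 3. With TMM in place of size factors, 2 of 152 condition means moved by more than 1 SD, Pdgfra in PD4 Sox1+FoxA2- cells from 2251 to 2538 and Postn in D4 Sox1+FoxA2+ cells from 343 to 281. Depth sets the floor of 3 counts per library. Sox10 and Postn were at 0 in 22 and 18 of 57 libraries, and depth as the cause was not tested.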
